A study of Mus musculus with 2 samples.

Results

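Messenger RNA levels of 10 maternal effect genes were followed in mouse embryos of the C57BL/6 background. The genes encode 6 components of the subcortical maternal complex (Nlrp5, Tle6, Ooep, Khdc3, Zbed3 and Padi6) and 4 further members of the Nlrp family (Nlrp2, Nlrp4f, Nlrp9a and Nlrp14). They were picked by gene symbol from a table of 23418 rows, and all 10 had a row. One pool of 20 embryos carried an injected siRNA (siDnmt1) to Dnmt1, the methyltransferase that maintains DNA methylation when DNA is replicated. The other 20 embryos had received a scrambled siRNA, and both pools were at the 4 to 8-cell stage. Each group is 1 library of polyadenylated RNA from pooled whole embryos, so no difference has a replicate check, no test was possible and the values concern these 2 libraries. Fewer embryos or cells carrying a transcript and less of it per cell cannot be told apart in such pools, and neither can transcripts stored in the egg and transcripts made by the embryo.

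The subcortical maternal complex forms under the cortex of the growing oocyte and persists in the cleaving embryo, where it is kept out of the regions where cells touch. In mice its NLRP5, TLE6 and OOEP proteins depend on each other, and eggs without them give embryos that stop dividing early. PADI6 is needed for the cytoplasmic lattices, the fibres in which the oocyte stores proteins for the embryo. The mRNAs of most of these genes are made in the oocyte and are cleared after fertilisation, while the proteins last longer. The NLRP family is otherwise known for sensors of innate immunity, and a subgroup of it is expressed chiefly in oocytes and early embryos.

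The series addresses DNA methylation, so the CpG dinucleotides that Dnmt1 acts on were counted in the 250 bases before the start of each gene. A RefSeq window on GRCm38.p6 was found for 9 of the 10 genes, and the outermost start was taken where a gene had several. Zbed3 had 3 windows and Tle6 and Nlrp5 had 2 each, and which start the embryos use is not known here. The sequences of Nlrp9a, Zbed3 and Tle6, which had the largest differences in either direction among those of the 10 genes at a mean of 20 counts, are shown with those of Nlrp5 and Padi6, 5′ to 3′ on the strand of the gene, with each CG in capitals. They lie at chr7:26534773-26535022 (Nlrp9a, plus strand), chr13:95323355-95323604 (Zbed3, plus strand), chr7:23385639-23385888 (Nlrp5, plus strand), chr4:140742644-140742893 (Padi6, minus strand) and chr10:81600901-81601150 (Tle6, minus strand).
Nlrp9a: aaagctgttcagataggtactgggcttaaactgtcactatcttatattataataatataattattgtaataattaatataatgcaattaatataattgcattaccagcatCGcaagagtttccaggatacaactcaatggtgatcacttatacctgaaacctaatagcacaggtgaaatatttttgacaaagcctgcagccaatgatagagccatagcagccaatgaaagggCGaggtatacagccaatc
Zbed3: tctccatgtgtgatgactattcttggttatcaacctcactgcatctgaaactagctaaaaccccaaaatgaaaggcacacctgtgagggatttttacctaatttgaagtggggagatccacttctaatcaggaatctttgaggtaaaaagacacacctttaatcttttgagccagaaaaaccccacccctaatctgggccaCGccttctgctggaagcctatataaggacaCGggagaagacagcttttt
Nlrp5: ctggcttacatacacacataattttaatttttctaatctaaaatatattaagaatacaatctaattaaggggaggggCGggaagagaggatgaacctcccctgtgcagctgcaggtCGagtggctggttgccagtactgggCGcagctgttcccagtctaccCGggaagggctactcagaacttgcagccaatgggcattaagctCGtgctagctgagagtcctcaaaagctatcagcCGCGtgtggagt
Padi6: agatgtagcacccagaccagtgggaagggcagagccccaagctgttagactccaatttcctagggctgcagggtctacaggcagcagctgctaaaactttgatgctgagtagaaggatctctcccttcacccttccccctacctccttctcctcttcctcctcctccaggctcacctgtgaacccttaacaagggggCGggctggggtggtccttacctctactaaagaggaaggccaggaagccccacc
Tle6: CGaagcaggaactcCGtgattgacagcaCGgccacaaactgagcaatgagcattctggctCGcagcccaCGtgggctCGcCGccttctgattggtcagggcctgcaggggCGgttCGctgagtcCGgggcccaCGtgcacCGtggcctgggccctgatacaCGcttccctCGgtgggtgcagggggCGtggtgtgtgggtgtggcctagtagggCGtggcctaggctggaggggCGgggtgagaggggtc

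Most of these promoters held few CpG sites. Nlrp9a, Zbed3, Nlrp2 and Nlrp4f had 2 each, Padi6 had 1 and Khdc3 had 0, whereas Nlrp5 had 7, Ooep 11 and Tle6 17. The median was 2 over the 9 promoters, 6 over all 27025 mouse promoters searched and 17 over the 5552 promoters of genes compared in these libraries. Thus 6 of the 9 had 5 CpG sites or fewer, against 49.5% of all promoters and 9.69% of those of genes compared. The genes compared had a mean of at least 20 counts, which Ooep, Khdc3, Nlrp2 and Nlrp4f did not reach. Among the genes compared, those with 0 to 5 promoter CpG sites had a median log2 ratio of 0.02 (n = 538), those with 6 to 15 a median of -0.10 (n = 1802) and those with 16 or more a median of -0.01 (n = 3212). In the same order, 38.8%, 29.9% and 26.7% of them lay at least 2-fold apart in either direction. The reason for that difference was not tested. Among the 10 genes, Nlrp9a and Zbed3, with the lowest ratios of those at a mean of 20 counts, both had 2 sites, as had Nlrp4f, which was equal in both libraries. Tle6 and Padi6, both higher in siDnmt1, had 17 and 1.

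Letters bound by oocyte transcription factors were searched on both strands of the same windows. The E-box CANNTG, the kind of site that FIGLA binds in other oocyte genes, was present in 8 of the 9 promoters and in 66.1% of all promoters. Khdc3 held 5 copies and Nlrp2 held 0. The homeobox letters TAATTG or TAATTA, of the kind that NOBOX binds, were rarer. TAATTG was found in 2 of the 9 (Nlrp9a and Ooep) and in 7.33% of all promoters, and TAATTA in 2 (Nlrp9a and Nlrp5) and in 4.91%. Over the promoters of genes compared, the shares were 54.6% for CANNTG, 3.82% for TAATTG and 2.23% for TAATTA. Nlrp9a held 2 copies of each, in a window with 34.8% G and C, the lowest of the 9. The shares take no account of base composition. The E-box and the homeobox letters may overlap in a window, and a match is not a binding site.

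The siDnmt1 library held 12236615 counts and the scrambled library 11675483, and Rn45s, a precursor of ribosomal RNA, was 37.3% of them in siDnmt1 and 29.9% in the scrambled library. Dnmt1 itself had 687 counts in siDnmt1 and 847 in the scrambled library (1.23-fold lower, counting interval 1.11 to 1.37), and 38.3% of the genes compared had a ratio as low or lower. Embryo markers were present, with 1489 counts of Pou5f1 in siDnmt1 against 2152 and 2640 of Sall4 against 2446. Tead4 had 2455 in siDnmt1 against 2202 and Tfap2c 282 in siDnmt1 against 577. Zp3 and Gdf9, also set as markers, were scarce, with 13 in siDnmt1 against 42 and 27 in siDnmt1 against 24. Of 24 listed genes of the 4-cell stage to the blastocyst, only Sox2 had no count in either library. The list of cumulus and granulosa cell markers summed to 2641 counts in siDnmt1 and 2272 in the scrambled library, nearly all from Nr5a2 (1659 in siDnmt1 against 1484) and Gja1 (929 in siDnmt1 against 732), which embryos also express. Of its 17 genes, 12 were at 0 in siDnmt1 and 14 in the scrambled library, Cyp19a1, Fshr, Lhcgr, Inha and Foxl2 among them in both. Amhr2 had 45 counts in siDnmt1 against 56. Sperm markers were at 0 for 10 of 12 genes in siDnmt1 and 11 in the scrambled library, the rest being Odf2 (190 in siDnmt1 against 180) and Ldhc (4 in siDnmt1 against 0). Of 6 oviduct markers, 5 were at 0 in siDnmt1 and 3 in the scrambled library, and Epcam, which embryos express too, had 97 in siDnmt1 against 258.

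Together the 10 genes gave 649 counts in siDnmt1 and 848 in the scrambled library, or 84.6 CPM in siDnmt1 and 103.6 CPM in the scrambled library, counts scaled to an equal library total without Rn45s. The sum was 1.31-fold lower in siDnmt1 as deposited (95% interval of counting error 1.18 to 1.45). Odc1 alone made up 16.5% of the counts without Rn45s in siDnmt1 and 24.5% in the scrambled library. This 1 gene therefore weighs on every comparison of CPM values between the libraries. The genes did not share a direction. Of the 10, 4 had more counts in siDnmt1 (Tle6, Padi6, Nlrp2 and Nlrp14), 5 had fewer (Nlrp5, Zbed3, Nlrp9a, Ooep and Khdc3) and Nlrp4f was equal. The mean over the libraries reached 20 counts for 6 of the 10. For these, log2((siDnmt1 + 5)/(scrambled + 5)) ranged from -2.37 for Nlrp9a to 0.96 for Tle6, with a median of -0.20, and the median over all 7315 genes that reached the same mean was -0.02. On this scale 2 of the 6 were at least 2-fold lower in siDnmt1, where 16.7% of all genes were, and 0 were at least 2-fold higher, where 12.5% were. Among 6 genes a single member shifts such a share widely, so nothing is read from it.

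**Figure D1:**
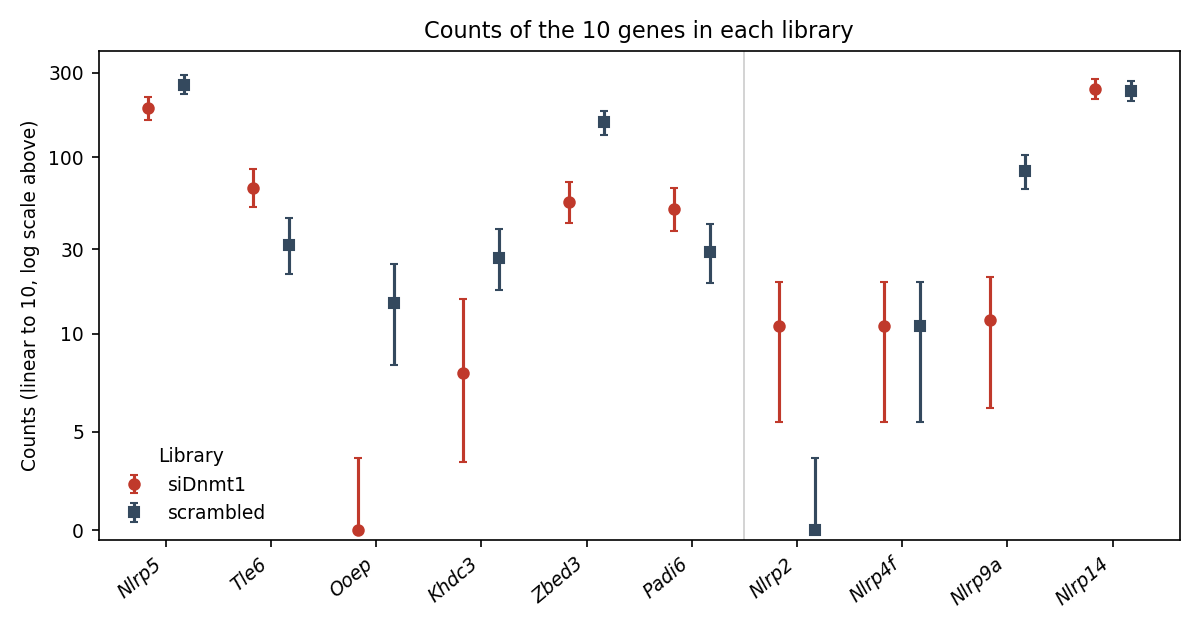
Counts of each of the 10 genes in the siDnmt1 library (red circles) and the scrambled library (dark squares), on an axis that is linear to 10 and logarithmic above, with 95% Poisson intervals of counting error. The grey line separates the 6 genes grouped as components of the complex, on the left, from the other Nlrp genes. Zbed3 (56 in siDnmt1 against 157) and Nlrp9a (12 in siDnmt1 against 83) lie apart, while Nlrp14 (244 in siDnmt1 against 237) and Nlrp4f (11 in siDnmt1 against 11) coincide.

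Nlrp5, whose protein (also called MATER) is the scaffold around which the complex is built in mice, had 189 counts in siDnmt1 and 257 in the scrambled library. It was 1.36-fold lower in siDnmt1 (1.12 to 1.65), with a log2 ratio of -0.43. The difference exceeds counting error but is ordinary for these libraries, since 33.2% of all genes compared had a ratio as low or lower. Tle6, a transducin-like protein that binds NLRP5 and OOEP in the mouse complex, had 67 counts in siDnmt1 and 32 in the scrambled library. It was 2.09-fold higher (1.35 to 3.30), and its log2 ratio of 0.96, shrunk by the 5 counts added to each library, fell just short of 2-fold. A ratio as high or higher was found for 13.2% of genes. Thus Nlrp5 and Tle6, whose proteins bind each other, lay on opposite sides of equality with intervals of their ratios that do not overlap.

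Ooep (also called FLOPED), a small RNA-binding-like protein with a KH domain, had 0 counts in siDnmt1 and 15 in the scrambled library, a log2 ratio of -2. Set at a floor of 3 counts in siDnmt1, it was at least 5.0-fold lower. Khdc3 (also called FILIA), a further KH domain protein that in mice protects chromosome number during cleavage, had 8 counts in siDnmt1 and 27 in the scrambled library. It was 3.38-fold lower (1.49 to 8.60). Both genes lie on chromosome 9 but are not next to each other among the protein-coding genes of GRCm38. Both means were under 20 counts. In the 2615 genes with a mean of 5 to 20 counts, 25.7% lay past 2-fold downward in siDnmt1 and 21.1% upward, and 6.35% had 0 counts in siDnmt1 against 5.47% in the scrambled library. A count of 0 for a gene at this level was therefore not rare in either library. Ooep has Dppa5a, a KH domain gene of pluripotent cells, as its direct neighbour, and that gene had 8 counts in siDnmt1 against 47, with a log2 ratio of -2. That Ooep had the same value rests on the 5 counts added, since Ooep had -4 with 1 added and -0.81 with 20 added. On the other side of Ooep, Ddx43 had 3 counts in siDnmt1 against 5. The neighbours of Khdc3, Rab27a (243 in siDnmt1 against 215) and Rsl24d1 (166 in siDnmt1 against 82), had more counts in siDnmt1, and Unc13c, next to Rsl24d1, had fewer (9 in siDnmt1 against 54).

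Zbed3, a zinc finger protein that helps place the spindle so that the first divisions are even, had 56 counts in siDnmt1 and 157 in the scrambled library. It was 2.80-fold lower (2.05 to 3.88), and a value as low as its log2 ratio of -1.41, or lower, was found for 9.58% of the genes compared. Its neighbour Aggf1 had 1143 counts in siDnmt1 against 496. Padi6, a peptidylarginine deiminase family member of the oocyte, had 51 counts in siDnmt1 and 29 in the scrambled library. It was 1.76-fold higher (1.09 to 2.88), with 20.0% of genes at or above its log2 ratio of 0.72. Of its neighbours, Rcc2 had 964 counts in siDnmt1 against 636, and Padi4, a family member found in blood cells, had 4 in siDnmt1 against 21. The 6 genes grouped as components of the complex, Nlrp4f not among them, thus included 2 with more counts in siDnmt1 and 4 with fewer, and their sum was 371 counts in siDnmt1 against 517.

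Nlrp9a had the lowest ratio of the 6 members that reached a mean of 20 counts. It had 12 counts in siDnmt1 and 83 in the scrambled library and was 6.92-fold lower (3.76 to 13.9). Its log2 ratio of -2.37 was matched or undercut by 2.76% of genes, and among genes with a mean of 20 to 100 counts 24.0% lay past 2-fold downward and 16.7% upward. Nlrp14, which in mice keeps the methylation cofactor UHRF1 stable in oocytes and embryos, was the most abundant of the 10 by total count, with 244 counts in siDnmt1 and 237 in the scrambled library. Its ratio was 1.03 (0.857 to 1.24), and a difference beyond that interval was not seen at this depth. Nlrp2, which acts as a maternal effect gene in mice, had 11 counts in siDnmt1 and 0 in the scrambled library. With the scrambled library set at the floor of 3 counts it was 3.67-fold higher, a value that rests on the floor and is not a lower bound. Nlrp4f, grouped here with the Nlrp genes although its protein too binds the mouse complex, had 11 counts in each library. Its ratio of 1 had an interval of 0.393 to 2.54, so a 2-fold difference in either direction was not excluded.

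**Figure D2:**
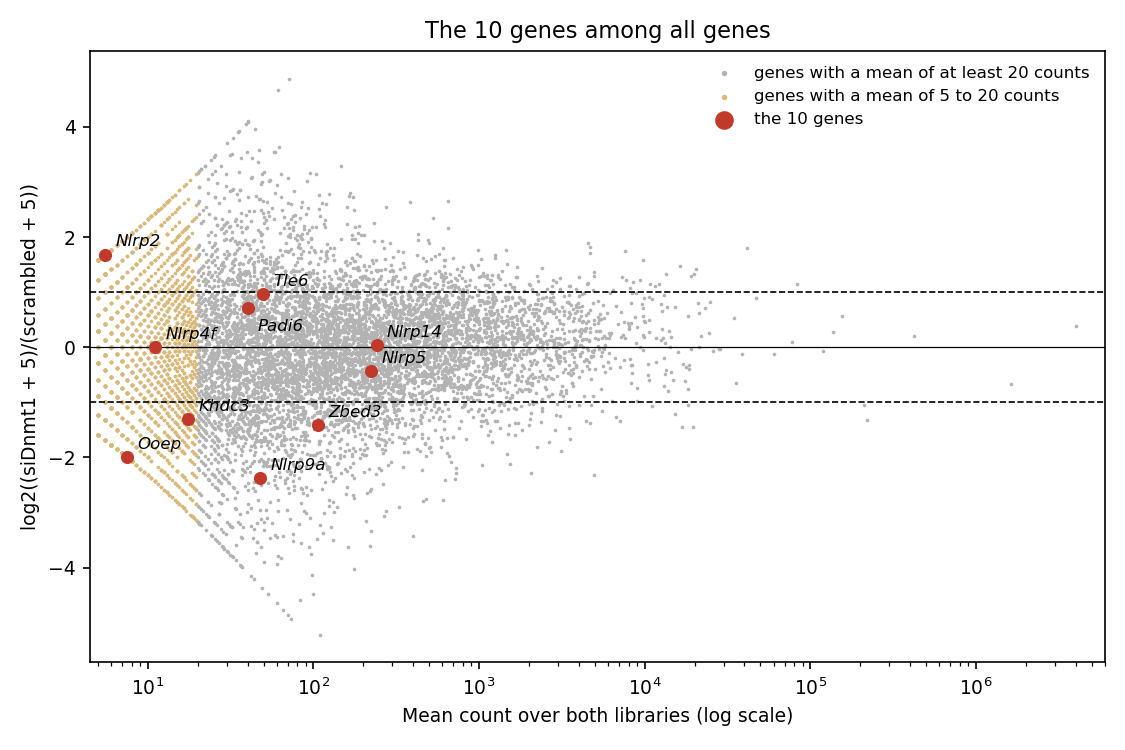
Log2 ratio of siDnmt1 over scrambled counts, with 5 added to each, against the mean count over both libraries on a log axis. Red points are the 10 genes, grey points the 7315 genes whose mean reached 20 counts, tan points the 2615 between 5 and 20, and dashed lines mark 2-fold. The 10 genes lie within the cloud of genes with like counts, from -2.37 (Nlrp9a) to 1.68 (Nlrp2).

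The order of levels differed between the libraries. Levels are given as CPM without Rn45s per kb of the longest annotated transcript. In siDnmt1, Nlrp14 was first at 9.72, then Nlrp5 at 7.02, Tle6 at 4.34, Zbed3 at 3.75 and Padi6 at 2.85. Then came Khdc3 at 0.620, Nlrp9a at 0.469, Nlrp2 at 0.421, Nlrp4f at 0.404 and Ooep at 0. Neighbours in that order differed beyond counting error between Nlrp14 and Nlrp5, Nlrp5 and Tle6, Padi6 and Khdc3, and Nlrp4f and Ooep, and the other neighbours did not. In the scrambled library, Zbed3 was first at 9.86, then Nlrp5 at 8.95, Nlrp14 at 8.85, Nlrp9a at 3.04 and Khdc3 at 1.96. Tle6 followed at 1.94, Padi6 at 1.52, Ooep at 0.857, Nlrp4f at 0.378 and Nlrp2 at 0. Here Nlrp14 and Nlrp9a, and Nlrp4f and Nlrp2, differed beyond counting error, and the other neighbours did not. Zbed3 thus moved to the fourth place in siDnmt1 and Nlrp9a to the seventh, while Tle6 and Padi6 stood higher in that order.

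The median of genes with a count was 1.35 in siDnmt1 and 1.40 in the scrambled library on the same scale, and the most abundant of the 10 genes lay above it. Nlrp14 lay at or above 79.9% of such genes in siDnmt1 and 78.9% in the scrambled library, Nlrp5 at or above 75.6% in siDnmt1 and 79.0% in the scrambled library, and Zbed3 at or above 66.3% in siDnmt1 and 80.2% in the scrambled library. Nlrp14 and Nlrp5 together made up 66.7% of the counts of the 10 genes in siDnmt1 and 58.3% in the scrambled library.

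Transcript length varied with the ratio across the whole table, and the lengths of the 10 genes spanned 1681 nt (Khdc3) to 3551 nt (Nlrp4f). Genes of 1000 to 2000 nt had a median log2 ratio of -0.57 (n = 875), against 0.00 for those of 3000 to 4000 nt (n = 1520). The 5 Nlrp genes, all above 3000 nt, lay where the trend with length was near 0, and Nlrp9a had a log2 ratio of -2.34 after its removal. The values of the shorter genes moved upward. After removal, Zbed3 had -1.10, Ooep -1.77, Khdc3 -0.83, Padi6 0.89 and Tle6 1.24, which put Tle6 past 2-fold. The part of length in these differences was not tested.

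**Figure D3:**
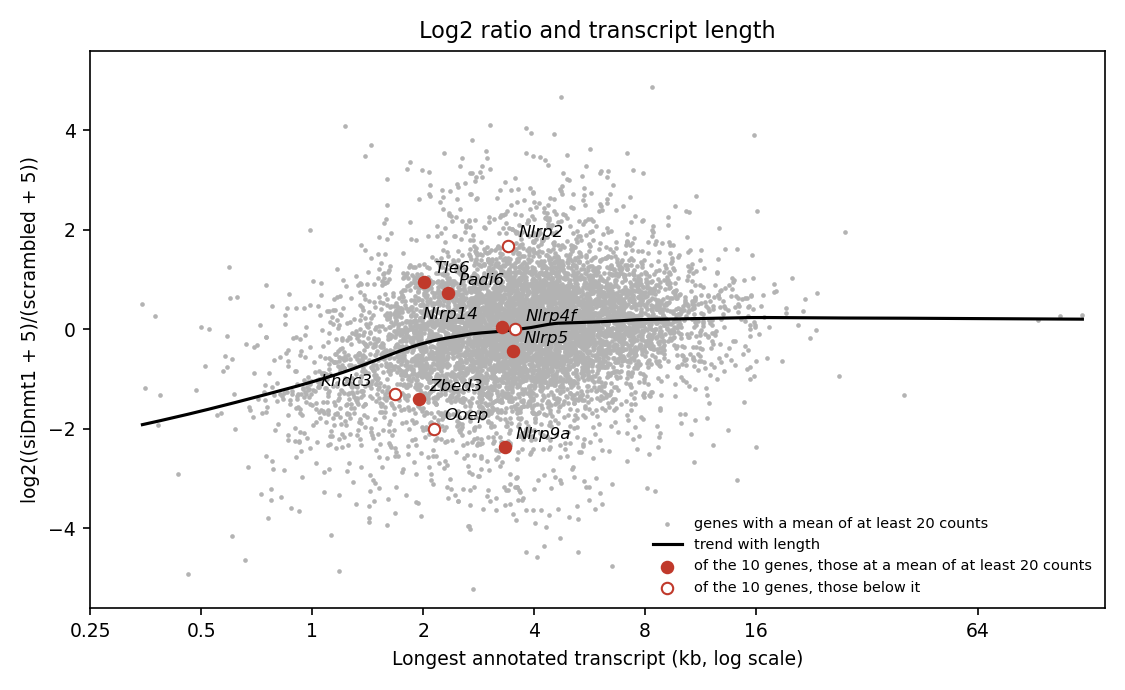
Log2 ratio of siDnmt1 over scrambled counts, with 5 added to each, against the longest annotated transcript in kb on a log axis. Grey points are genes whose mean reached 20 counts, the line is their lowess trend, filled red points are the 6 of the 10 genes at that mean and open ones the 4 below it. Zbed3, Khdc3 and Ooep, and also Tle6 and Padi6, lie at lengths where the trend is below 0, and Nlrp9a where it is near 0.

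Another 15 rows carried an Nlrp symbol. Of these, 13 had a count, 6 with more in siDnmt1, 6 with fewer and 1 equal, and 3 reached a mean of 20 counts. Nlrp4c, an oocyte member of the family, had 54 counts in siDnmt1 and 103 in the scrambled library (1.91-fold lower in siDnmt1, 1.36 to 2.70). Nlrp5-ps, the pseudogene of Nlrp5, had 59 in siDnmt1 against 72 and Nlrp12, known from immune cells, 19 in siDnmt1 against 27, both with intervals that include equality. None of the 3 was 2-fold apart on the log2 scale. The other copies of Nlrp9 were scarce, with 4 counts in siDnmt1 against 6 for Nlrp9b and 0 in siDnmt1 against 12 for Nlrp9c. With siDnmt1 set at the floor of 3 counts, Nlrp9c was 4.0-fold lower, a value that rests on the floor. All 3 Nlrp9 genes thus had fewer counts in siDnmt1, though for Nlrp9b the counts are too few to tell. By count the Nlrp4 genes lay on both sides of equality, but those with more in siDnmt1 had too few counts to tell. Nlrp4b had 0 counts in siDnmt1 against 9 and Nlrp4a 17 in siDnmt1 against 10. Nlrp4e had 2 in siDnmt1 against 0 and Nlrp4g 4 in siDnmt1 against 1. The intervals of Nlrp4a (0.735 to 4.15) and Nlrp4g (0.396 to 197) include equality. Only Nlrp4c and Nlrp4b differed beyond counting error, both with fewer counts in siDnmt1. Nlrp3, the sensor of the inflammasome in immune cells, had 1 count in siDnmt1 against 0, and Nlrp1a and Nlrp1b had none in either library.

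**Figure D4:**
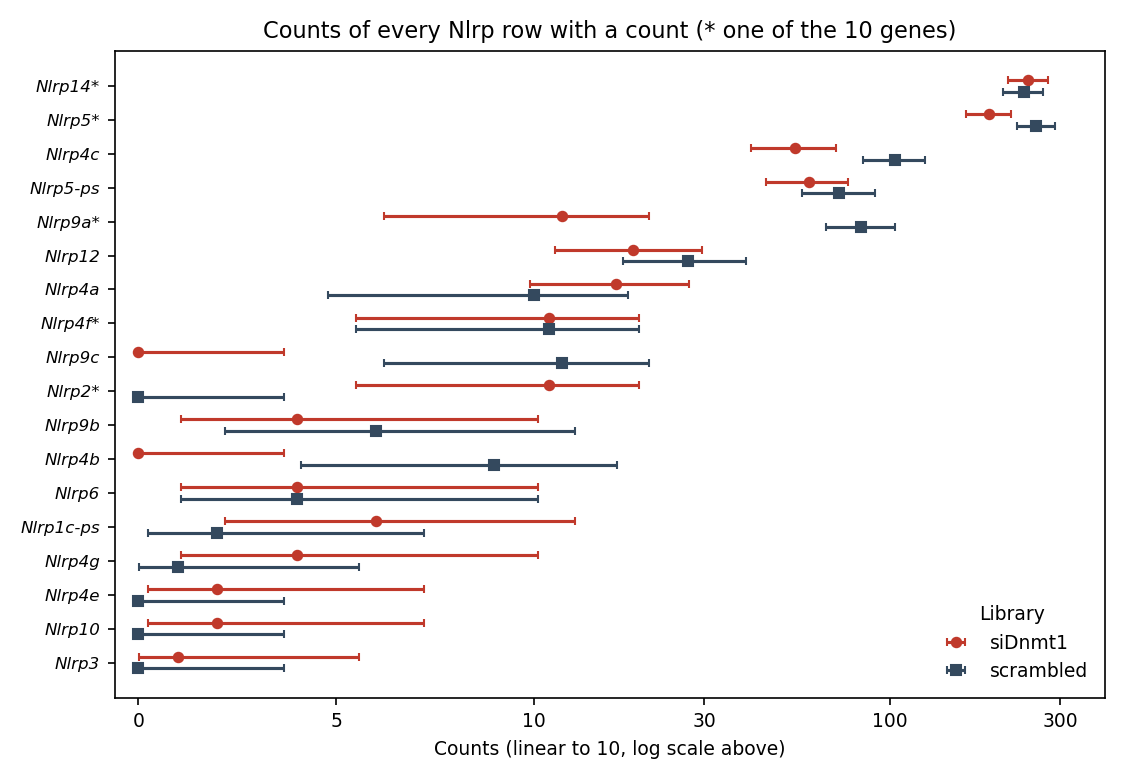
Counts of the 18 Nlrp rows with a count, ordered by total, in the siDnmt1 library (red circles) and the scrambled library (dark squares) with 95% Poisson intervals of counting error, on an axis that is linear to 10 and logarithmic above. An asterisk marks the 5 that are among the 10 genes. Nlrp5, Nlrp9a, Nlrp9c, Nlrp4c and Nlrp4b lie lower in siDnmt1 and Nlrp2 lies higher, beyond their intervals.

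Reads shared between copies could blur these counts, so the longest transcripts were compared in stretches of 50 bases. Nlrp9a shared 6.54% of its stretches with another gene, mostly Nlrp9b, Nlrp4f shared 7.08%, mostly with Nlrp4g, and Nlrp5 shared 8.93%, nearly all with Nlrp5-ps. Nlrp14, Zbed3 and Padi6 shared 0, and Ooep, Tle6 and Nlrp2 at most 1.39%. Khdc3 shared 42.8% with Gm20509, an annotated gene that overlaps it on the same strand, so its count is uncertain. Among the other rows, Nlrp5-ps shared 64.3%, mostly with Vmn1r90, so its count is uncertain too, and Nlrp4c shared 11.9%, mostly with Nlrp4e.

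Genes tied to the complex or the lattices, among them those of ubiquitin ligases found in lattices, were set beside it. Of the 22 on this list, 8 reached a mean of 20 counts, with a median log2 ratio of -0.75, 4 of them past 2-fold downward and 1 upward. Over all genes compared, 16.7% lay past 2-fold downward and 12.5% upward, and a single gene shifts the share of so short a list widely. Uhrf1, which guides Dnmt1 to half-methylated DNA, encodes the protein that NLRP14 keeps stable in mice. It had 58 counts in siDnmt1 and 380 in the scrambled library (6.55-fold lower, 4.96 to 8.79). Nlrp14 itself had 244 in siDnmt1 against 237. Both are mRNA counts, which do not show the stability of a protein. Skp1a, the adaptor of SCF ubiquitin ligases, had 63 in siDnmt1 against 245 (3.89-fold lower), and Fbxw24, an F-box gene, 12 in siDnmt1 against 41 (3.42-fold lower, 1.76 to 7.14). Kpna2, an importin, had 3419 in siDnmt1 against 7675 (2.24-fold lower). Cfl1, the actin-severing protein cofilin, had 716 in siDnmt1 against 900, Axin1, a scaffold of Wnt signalling whose partner is ZBED3, 1121 in siDnmt1 against 1113, and Ube2d3, a ubiquitin-conjugating enzyme, 1437 in siDnmt1 against 1065. Faf1, a ubiquitin-binding factor, had 415 in siDnmt1 against 105 (3.95-fold higher, 3.18 to 4.94). After removal of the length trend the log2 ratios were -0.81 for Fbxw24 and -0.90 for Kpna2, both then within 2-fold, and the median of the 8 was -0.49.

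Other maternal effect genes also lay on both sides of equality. Of 42 listed, 32 reached a mean of 20 counts, with a median log2 ratio of 0.04 (-0.026 with equal library totals). Of these 32, 4 lay past 2-fold upward, where 12.5% of all genes did, and 7 downward, where 16.7% did. The extremes were Uhrf1 and Prdx2, a peroxiredoxin (19 in siDnmt1 against 94), at the low end, and Atg5, needed for autophagy in the fertilised egg (142 in siDnmt1 against 24), and Pms2, of mismatch repair (149 in siDnmt1 against 36), at the high end. For oocyte-stored transcripts the median was 0.14 over 9 genes, 1 past 2-fold upward and 2 downward. That median changed direction with the filter, to -0.28 at a mean of at least 100 counts and to 0 without a filter. Plat, the tissue plasminogen activator, had 48 counts in siDnmt1 against 167 and Zp3, a zona pellucida protein, 13 in siDnmt1 against 42, while Bub1b, a spindle checkpoint kinase, had 457 in siDnmt1 against 120 and Zp1, also of the zona pellucida, 90 in siDnmt1 against 43.

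For oocyte transcription factors the median was 0.69 over 7 genes, 3 of them past 2-fold upward and 0 downward. Beside the counts of this list and the next ones stand the shares of all genes, 12.5% upward and 16.7% downward. In lists this short a single gene shifts the share widely. Sohlh2, which acts in germ cells, had 64 counts in siDnmt1 against 5 and Bnc1, a zinc finger factor of the oocyte, 50 in siDnmt1 against 12, while the homeobox genes Obox6 and Obox5 had 1510 in siDnmt1 against 2365 and 45 in siDnmt1 against 45. Genes of the 2-cell stage gave -0.76 over 8 genes, 4 past 2-fold downward and 0 upward, from Zfp352 (112 in siDnmt1 against 802) and Usp17lb (18 in siDnmt1 against 89) to Tdpoz4 (335 in siDnmt1 against 258) and Tdpoz2 (642 in siDnmt1 against 422). Genes of the 4-cell stage to the blastocyst gave -0.13 over 19 genes, 2 past 2-fold upward and 6 downward. Prdm14, a factor of naive pluripotency, had 3 counts in siDnmt1 against 69 and Dppa4, a chromatin protein of pluripotent cells, 991 in siDnmt1 against 3469, while Aqp3, a water channel, had 81 in siDnmt1 against 34 and Tdgf1, a coreceptor of Nodal, 344 in siDnmt1 against 163. A difference in stage between the pools and the injected siRNA cannot be told apart with 1 pool a group.

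**Figure D5:**
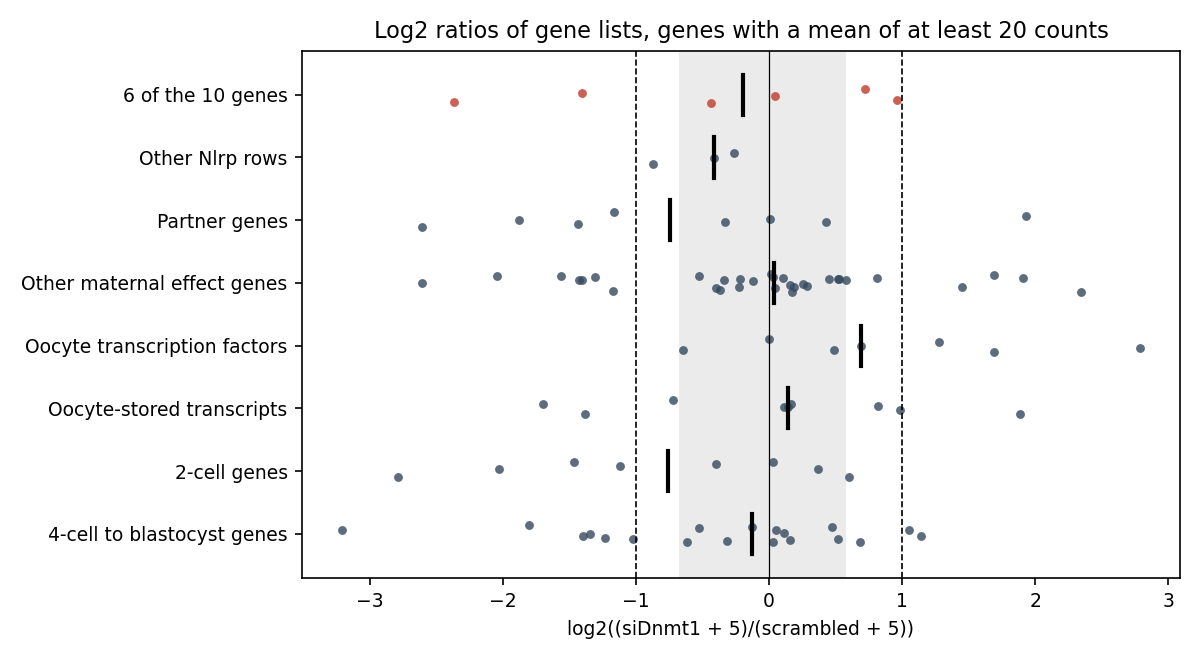
Log2 ratio of siDnmt1 over scrambled counts, with 5 added to each, for every gene of each list whose mean reached 20 counts. Points are genes with a vertical jitter, black bars list medians, dashed lines mark 2-fold and the grey band the middle 50% of all genes (-0.67 to 0.57). The 6 of the 10 genes (red) range from -2.37 to 0.96, and their median of -0.20 lies in the band.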

How the data were processed

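RNA on oligo-dT beads was turned into cDNA by pico-profiling, a method for small inputs, with 20 cycles of PCR and paired-end sequencing, per the labels' protocols. Trim Galore, HISAT2, HTSeq, DESeq2 and mm9 are named, without versions, in the submitters' processing notes; whether strand was used in counting is not given in the sources used here. Per gene and library, 1 count was deposited by the authors, described as DESeq2-normalised. The values are whole, skip 0 of the whole numbers from 1 to 59, and give DESeq2 size factors of 1. A table already normalised would also give 1, but scaling by most other factors and rounding would skip or pile up low numbers, so they were used as unscaled counts.

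With 1 library a group no test could be fitted. Ratio intervals are 95% Clopper-Pearson and, like the Poisson intervals in the figures, cover counting error only, since amplified copies cannot be told from molecules. Filter (mean of 20 counts), pseudocount (5), scaling, 2-fold threshold and lowess trends (span 0.3) were varied. The 2-fold rule and the intervals were tried only on simulated Poisson counts, which hold no amplification and no variation between libraries. The simulated differences were set in genes above the mean count of most of the 10. The simulation therefore does not show how either performs for these genes in these libraries. Lengths are of the longest GENCODE M21 transcript (found for 99.4% of 7315 genes), which can exceed the expressed one. GRCm38 served for names, lengths, neighbours and RefSeq promoters only. Named were the 10 genes, Dnmt1, other Nlrp rows and partner genes at a mean of 20 counts, the 2 highest and 2 lowest of each other list (all where fewer than 5 reached the mean), and, chosen after their values were seen, neighbours, markers and scarcer Nlrp rows. Members and lists were chosen with earlier results of these data known. Scalings used DESeq2 1.42.0 and edgeR 4.0.16 under R 4.3.3, intervals scipy 1.17.1, trends statsmodels 0.14.6, and tables pandas 2.3.3 on Python 3.11.15.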

Additional observations from a re-analysis of the deposited data

How the results depend on the processing

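DESeq2 size factors of 1 left every value as reported. Over 8 other alternatives (pseudocounts of 1 and 20, 4 scalings, trends on length and mean count removed), 63 of 64 log2 ratios of the 8 genes with counts in both libraries stayed within the counting interval, all but that of Nlrp9a with a pseudocount of 20, and 0 of those whose interval excludes equality changed sign. Nlrp9a ranged from -2.69 to -1.69 and Zbed3 from -1.47 to -1.10, both past 2-fold lower in all 8. Tle6 ranged from 0.74 to 1.24 and passed 2-fold in 4 of them. Khdc3 ranged from -1.64 to -0.75 and lay past 2-fold in 6, not with a pseudocount of 20 or the length trend removed. Ooep and Nlrp2, at 0 in a library, have no such interval and depended most on the pseudocount: Ooep ranged from -4 (pseudocount of 1) to -0.81 (20) and Nlrp2 from 0.63 (20) to 3.58 (1), each past 2-fold in 7. The median of the 6 members ranged from -0.26 to -0.10. It was -0.22 over the 10 without the filter and -0.43 at a mean of at least 100 counts, which keeps only 3 of them. The number at least 2-fold higher was 0, but 1 with a pseudocount of 1, with equal totals without Rn45s, and with the length or mean count trend removed (Tle6 each time), 1 without the filter (Nlrp2) and 2 at 1.5-fold. The number at least 2-fold lower was 2, but 4 without the filter, 1 at a mean of at least 100 counts and 1 at 4-fold. Over all genes, 1682 were higher and 2122 lower without the filter, and 395 and 482 at a mean of at least 100 counts. No share is given for these filters, so nothing is read from the members' numbers under them. The 4 members that the filter removes had means of 5 to 20 counts. Among the 2615 genes at such means, 25.7% were at least 2-fold lower and 21.1% higher. Of the 7315 genes compared, 911 were higher and 1221 lower at 2-fold, 193 and 330 at 4-fold, and 1808 and 2046 at 1.5-fold. The number at least 2-fold higher was 992 with a pseudocount of 1 and 1053 with equal totals without Rn45s. It was 998 with the mean count trend removed and, of the 7270 genes with a length, 938 with the length trend removed.

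The median of partner genes was -0.63 with a pseudocount of 20, -0.49 with the length trend removed, -0.33 without the filter and -0.33 at a mean of at least 100 counts. That of 2-cell genes was -0.36 with the length trend removed and -0.40 at a mean of at least 100 counts. That of 4-cell to blastocyst genes was -0.037 with equal totals without Rn45s, -0.022 with the length trend removed, -0.23 with the mean count trend removed and, reversed, 0.054 without the filter. That of oocyte-stored transcripts was 0.38 with the length trend removed, -0.28 at a mean of at least 100 counts and 0 without the filter. Marker medians were 0.037 (length trend removed) and 0.34 (no filter) for cumulus cells, 0.46 for sperm and -0.49 for oviduct (no filter). The causes were not tested, beyond the change in which genes a filter keeps. No paired analysis was possible because each group has 1 library. Depth limits Ooep, Khdc3, Nlrp2 and Nlrp4f, which rest on 35 counts or fewer.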
